A study of Arabidopsis thaliana with 4 samples.

Results

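The 8 genes described here belong to the circadian clock of Arabidopsis thaliana or report its phase, and they were taken by fixed probe set from the 22810 probe sets of the Affymetrix ATH1 array, 1 probe set per gene. They are CCA1 (AT2G46830, probe set 266719_at), LHY (AT1G01060, 261569_at), PRR7 (AT5G02810, 250971_at), PRR5 (AT5G24470, 249741_at), TOC1 (AT5G61380, 247525_at), GI (AT1G22770, 264211_at), ELF4 (AT2G40080, 267364_at) and CCR2 (AT2G21660, 263548_at), which RefSeq lists as GRP7. The platform annotation used here names the probe set of GI only, so the other 7 pairings of probe set and locus come from the description of the gene group, and the RefSeq gene table holds all 8 loci. Aerial tissue was taken at 14 days from soil-grown plants of 2 genotypes, wild-type and php mutants. The PHP protein belongs to the PAF1 complex, a set of factors that accompanies RNA polymerase II during elongation, and its name stands for PLANT HOMOLOGOUS TO PARAFIBROMIN. Neither the php allele nor the hour of harvest is stated in the sources used here. The PHP transcript itself was not analysed here, so the genotypes are as labelled. Each genotype had 2 arrays, numbered I and II, and each array was made from 3 independently derived samples.

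The plant clock is a loop of transcription factors that repress one another in sequence through the day. CCA1 and LHY are MYB factors whose transcripts peak around dawn, and they repress genes of the evening. The pseudo-response regulators PRR7 and PRR5 are made in turn through the day and repress CCA1 and LHY, and TOC1 of the same family does so in the evening. GI and ELF4 are also expressed late in the day, and CCR2 encodes an RNA-binding protein whose rhythm is driven by this loop.

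In php shoots the dawn-peaking genes CCA1 and LHY had lower levels than in wild-type, by 2.54-fold for CCA1 and 3.21-fold for LHY. The evening genes TOC1, GI and ELF4 and the output gene CCR2 had higher levels in php by 1.27-fold to 1.35-fold, and the day genes PRR7 and PRR5 overlapped between the genotypes. The lists used below place PRR7 (log2 difference -0.08) with the dawn genes and PRR5 (0.07) with the evening genes. None of the 8 genes passed the test at an adjusted p of 0.05. The test was limma on the deposited log2 values, adjusted after Benjamini and Hochberg for all 15922 probe sets tested, and all 8 genes were among those. Of all probe sets tested, 5 were called, or 0.0314%, and 0 with any 1 of the 4 arrays left out. Unadjusted p was under 0.05 for 5 of the 8 genes, where 24.2% of all probe sets reached it. These were 3 genes higher in php, beside 11.3% of all probe sets, and 2 lower, beside 12.9%. The genotypes did not overlap for 6 of the 8, where 60.5% of all probe sets did not, with 4 higher in php (33.2% of all) and 2 lower (27.4% of all). The sign was the same for both replicate numbers in all 8, as in 74.4% of all probe sets. A difference of at least 2-fold, which is 1 on the log2 scale, was seen for 2 of the 8 and for 1.07% of all probe sets. The median difference of the 8 genes was 0.21 and that of all probe sets 0.01 on the log2 scale, and the medians of its absolute size were 0.39 and 0.15. With 2 arrays against 2, an exact two-sided permutation test cannot go below p = 0.333, so each p rests on limma's model. In bulk tissue, less RNA per cell and fewer cells that hold it cannot be told apart. A difference in the hour of harvest between the genotypes and a difference caused by the mutation also cannot be told apart.

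**Figure D1:**
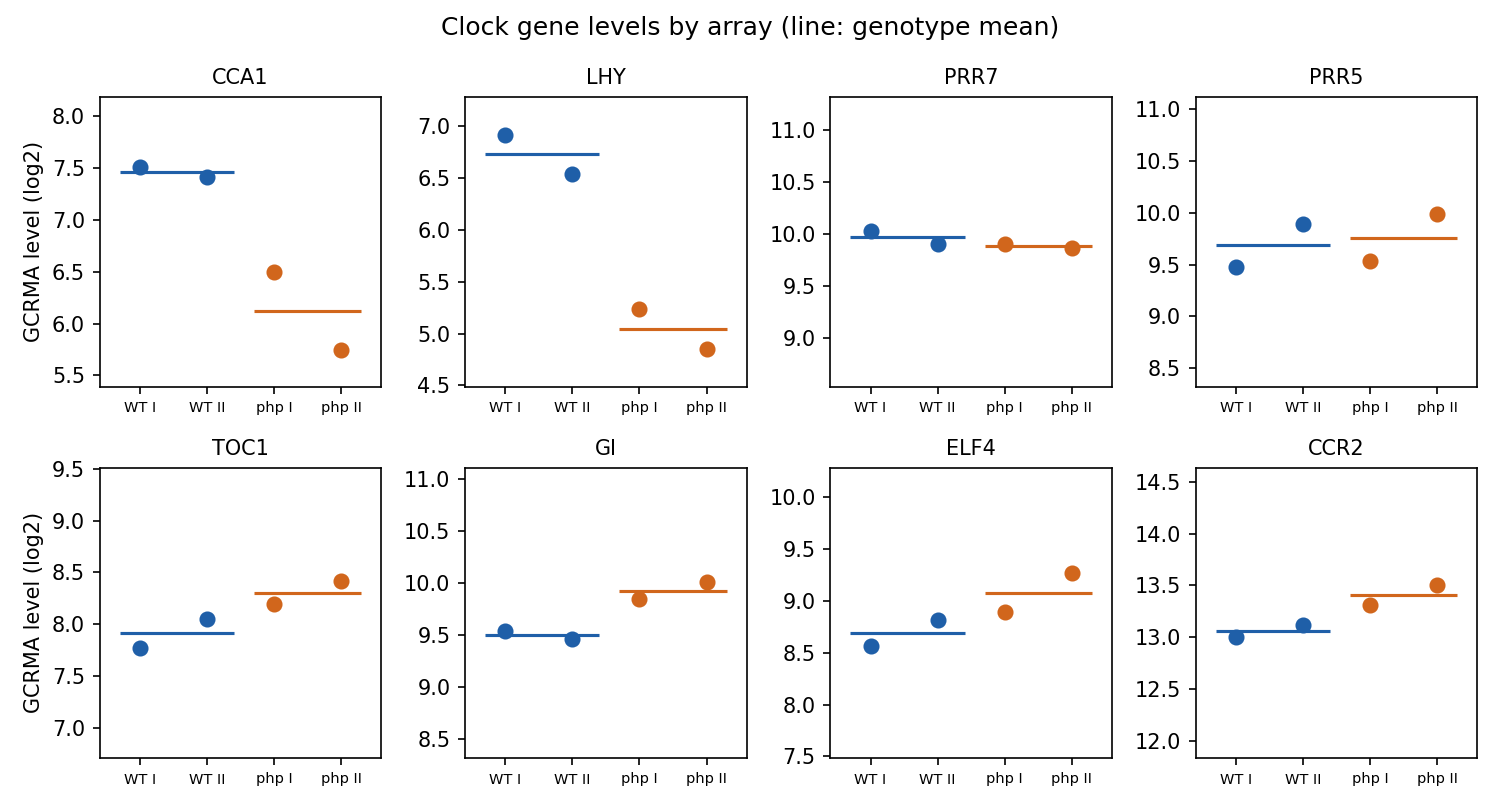
Log2 GCRMA level of each clock gene on each of the 4 arrays (wild-type, abbreviated WT, in blue; php in orange; a line marks the genotype mean), with the same span of log2 units on every vertical axis. CCA1 and LHY are lower on both php arrays, TOC1, GI, ELF4 and CCR2 are slightly higher on both, and PRR7 and PRR5 overlap.

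CCA1 had log2 levels of 7.51 and 7.42 for wild-type I and II and of 6.49 and 5.74 for php I and II. Both php arrays lay below both wild-type arrays, and the php arrays also lay further apart than the wild-type arrays. The means were 7.46 ± 0.06 in wild-type and 6.12 ± 0.53 in php (SD, n = 2 arrays each), a log2 difference of -1.34 (SE 0.28, 95% interval from -2.12 to -0.57, limma adjusted p = 0.117, unadjusted p = 0.00859). Of the 2392 tested probe sets within 0.5 log2 units of its level, 99.3% had a smaller difference.

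LHY, the close relative of CCA1, had wild-type levels of 6.92 and 6.54 and php levels of 5.24 and 4.85, I and II in turn. The genotypes were well separated, and array I was the higher one in both. The genotype means were 6.73 ± 0.27 and 5.05 ± 0.27 (SD, n = 2 arrays each), a log2 difference of -1.68 (SE 0.21, 95% confidence interval -2.27 to -1.10, limma adjusted p = 0.093, unadjusted p = 0.00135). Taken within a replicate number, the LHY difference was -1.68 in I and -1.69 in II, while that of CCA1 was -1.01 in I and -1.67 in II. LHY had the smallest p of the 8 genes, and 99.8% of 1748 probe sets of like level had a smaller difference.

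PRR7, which represses CCA1 and LHY from the morning on, had wild-type levels of 10.03 and 9.90 and php levels of 9.91 and 9.87. The genotypes overlapped and all 4 arrays lay within 0.17 log2 units, the narrowest range of the 8 genes. Its difference was -0.08, with 95% confidence limits at -0.27 and 0.10 (limma adjusted p = 0.493).

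PRR5, which follows PRR7 in the day, gave 9.47 and 9.90 for wild-type I and II and 9.53 and 9.98 for php I and II. The arrays fell together by number and not by genotype. The php minus wild-type difference was 0.07 (95% confidence interval -0.55 to 0.69, limma adjusted p = 0.860), at 0.06 in I and 0.09 in II. Leaving out wild-type replicate I gave -0.14 and leaving out php replicate II gave -0.15, values that the difference between the numbers enters.

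TOC1, which represses CCA1 and LHY in the evening, gave 7.77 and 8.05 for wild-type I and II and 8.19 and 8.42 for php I and II. Both php arrays were above both wild-type arrays, although php I exceeded wild-type II by less than the wild-type arrays differed from each other. The difference was 0.39 (SE 0.14, 95% confidence interval 0.0027 to 0.78, limma adjusted p = 0.205), and 0.25 without wild-type replicate I.

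GI encodes GIGANTEA, which binds the photoreceptor ZEITLUPE and acts on TOC1 protein and on flowering. Its wild-type levels were 9.54 and 9.46 and its php levels 9.84 and 10.01, with no overlap. The difference was 0.43 (SE 0.08, 95% confidence interval 0.21 to 0.65, limma adjusted p = 0.112), a 1.35-fold higher level in php. Of 1385 probe sets of like level, 92.9% had a smaller difference.

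ELF4, a subunit of the evening complex that represses growth and clock genes at night, had wild-type levels of 8.56 and 8.82 and php levels of 8.89 and 9.27. The genotypes did not overlap, but php I and wild-type II were close. The difference was 0.39 (SE 0.17, 95% confidence interval -0.08 to 0.86, limma adjusted p = 0.261), and it was 0.20 without php replicate II.

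CCR2, the rhythmic output gene, had wild-type levels of 13.01 and 13.12 and php levels of 13.31 and 13.50, with no overlap. The difference was 0.34 (SE 0.09, 95% confidence interval 0.10 to 0.59, limma adjusted p = 0.144). At this high level the spread of probe sets is narrow, and 94.6% of 204 probe sets of like level had a smaller difference.

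**Figure D2:**
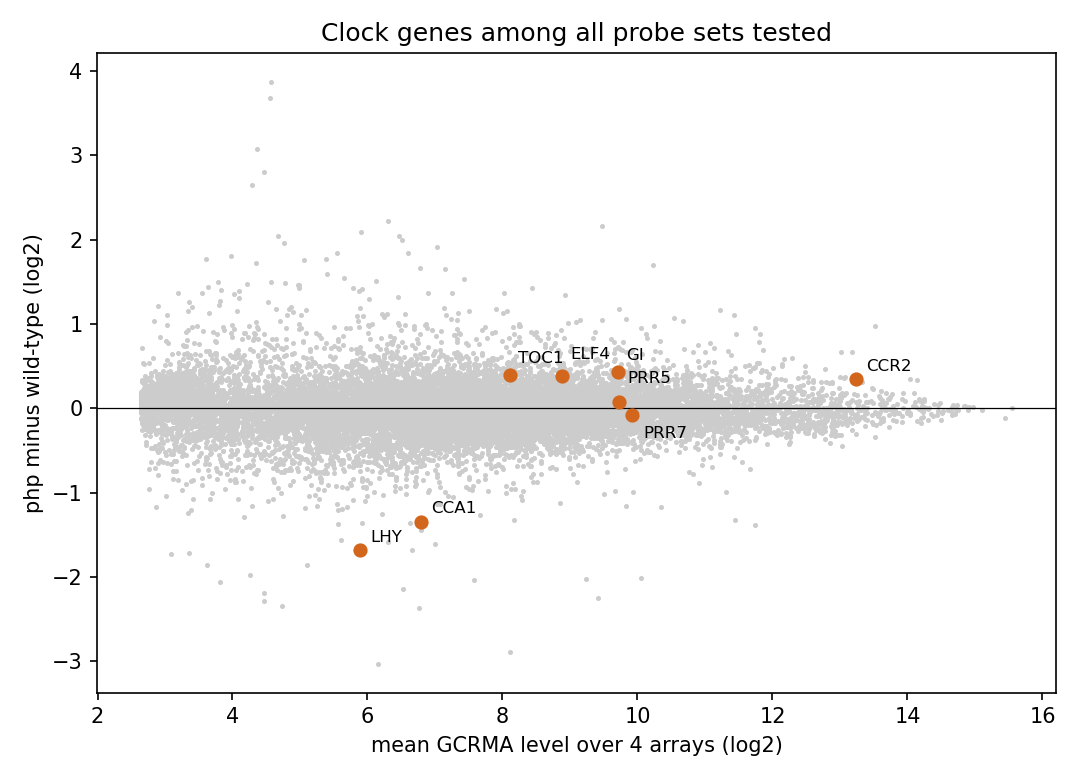
Difference between php and wild-type (log2) against the mean level over the 4 arrays (log2) for all 15922 probe sets tested (grey) and the 8 clock genes (orange). LHY at -1.68 and CCA1 at -1.34 lie at the lower edge of the cloud, and the other 6 genes lie between -0.08 and 0.43.

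Of the control signals that do not come from the plant, one kind differed between genotypes by amounts like those of TOC1, GI and ELF4. All 18 probe sets of the spike-in transcripts added at hybridization were higher in php, by a median of 0.35 (0.22 to 0.51) on the log2 scale. For the poly(A) spike-ins, with 27 probe sets of which 6 were higher in php, the median difference was -0.07 (-0.31 to 0.10). Array medians over all probe sets lay between 5.59 and 5.64, and probe sets at the level of each clock gene had median differences between -0.05 and 0.00. The part of the spike-in signal in the clock gene differences was not tested.

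The arrays numbered II were compared with those numbered I to see whether clock genes differed between the replicate numbers. For this the replicate number was tested in a limma fit that also held genotype, on the same 4 arrays, and the labels do not say that a number marks a shared day or hour. PRR5 was higher on array II than on array I by 0.42 in wild-type and 0.45 in php. ELF4 was higher on II by 0.26 and 0.38, TOC1 by 0.28 and 0.22 and CCR2 by 0.12 and 0.19, in wild-type and php in turn. LHY was lower on II, with differences of -0.38 in wild-type and -0.39 in php.

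The direction from I to II was the same in both genotypes for 7 of the 8 genes, where 59.8% of all probe sets kept one direction. None of the 8 passed in limma at an adjusted p of 0.05, and of all probe sets 0 did, or 0%, with 1252 at an unadjusted p under 0.05. The unadjusted p was under 0.05 for 5 of the 8 genes, PRR5, ELF4, LHY, TOC1 and CCR2, where 7.86% of all probe sets reached it. The arrays numbered I and II did not overlap for 2 of the 8, PRR5 and PRR7, where 24.2% of all probe sets did not, and for PRR7 the gap was narrow. The median absolute difference between II and I was 0.28 for the 8 genes and 0.08 for all probe sets.

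PRR5 had the smallest p of the 8 genes between the numbers. Its mean was 9.50 ± 0.04 on the arrays numbered I and 9.94 ± 0.06 on those numbered II (SD, n = 2 arrays each), a log2 difference of 0.44 (SE 0.04, 95% confidence interval 0.29 to 0.58, limma adjusted p = 0.414, unadjusted p = 0.00278). Of 1383 probe sets of like level, 97.8% had a smaller difference between the numbers. ELF4 differed by 0.32 (95% confidence interval 0.12 to 0.51, limma adjusted p = 0.612) and LHY by -0.38 (-0.67 to -0.10, limma adjusted p = 0.624). TOC1 differed by 0.25 (limma adjusted p = 0.624) and CCR2 by 0.15 (limma adjusted p = 0.626).

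CCA1 differed by -0.42 between the numbers, made up of -0.09 in wild-type and -0.75 in php, with 95% confidence limits at -1.13 and 0.29 (limma adjusted p = 0.635). PRR7 differed by -0.09 (limma adjusted p = 0.648). GI was the gene whose direction differed between the genotypes, at -0.08 in wild-type and 0.17 in php. The size of the difference between php and wild-type exceeded that between the numbers for CCA1, LHY, TOC1, GI, ELF4 and CCR2, and was the smaller one for PRR5 and PRR7, a comparison of values with no test.

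**Figure D3:**
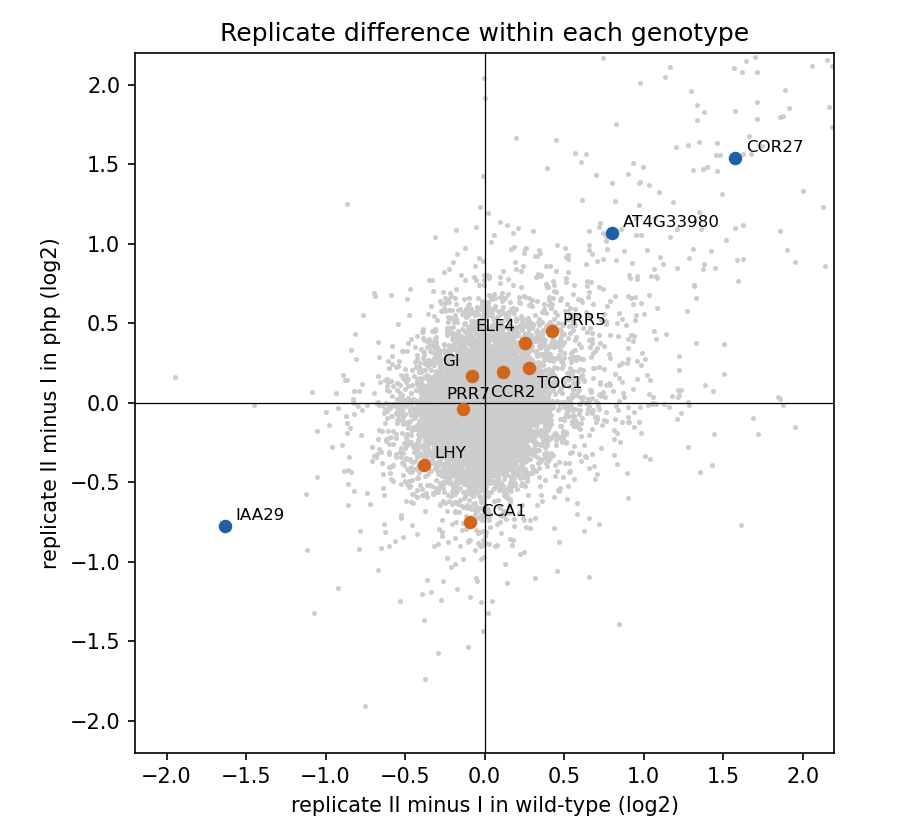
Difference between arrays II and I (log2) within wild-type (horizontal) and within php (vertical), for all probe sets tested (grey, 55 of which lie beyond the axes), the 8 clock genes (orange) and 3 clock output genes (blue). PRR5, ELF4, TOC1 and CCR2 lie in the upper right quadrant with COR27 and AT4G33980, LHY, CCA1 and PRR7 lie in the lower left one with IAA29, and GI lies in the upper left one.

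Other clock genes were looked up by locus in lists of the dawn and evening loops, clock-associated factors, photoreceptors and rhythmic outputs. Of the 21 list genes other than the 8 that had a probe set named here, in these and further lists, 16 were tested and 0 passed in either limma comparison. The one further gene tested in the dawn list was AT5G52660, with wild-type levels of 7.10 and 7.22 and php levels of 6.93 and 7.11, which overlapped. Its php minus wild-type difference was -0.15 (limma adjusted p = 0.440). The other tested genes of the dawn list (CCA1, LHY and PRR7) and all of those of the evening list (PRR5, TOC1, GI and ELF4) are among the 8 described above. TIC, a nuclear regulator of clock amplitude, differed by 0.19, XCT, the XAP5 CIRCADIAN TIMEKEEPER gene, by 0.06, and FIO1, whose loss lengthens the period, by -0.16 (limma adjusted p = 0.226, 0.696 and 0.450). Their differences between II and I were -0.08, -0.02 and 0.17. No photoreceptor gene had a probe set named here, and those were not analysed here.

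Among rhythmic outputs, COR27, a cold-induced regulator that acts on clock genes at night, had wild-type levels of 4.51 and 6.09 and php levels of 5.63 and 7.17. Array II was the higher one in both genotypes, by 1.58 and 1.54, and php was the higher genotype for both numbers, by 1.11 in I and 1.08 in II. The difference between II and I was 1.56 (SE 0.08, limma adjusted p = 0.223, unadjusted p = 0.000558), a 2.94-fold difference. That between php and wild-type was 1.09 (limma adjusted p = 0.438, or 0.137 with the replicate number in the fit). It lay between 0.31 with the first wild-type array left out and 1.88 with the second left out, values that the difference between the numbers enters. Of the 1709 probe sets of like level, 99.1% had a smaller difference between the numbers.

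AT4G33980, also in the output list, had wild-type levels of 4.13 and 4.93 and php levels of 4.95 and 6.02. It differed by 0.93 between the numbers (limma adjusted p = 0.478). Between genotypes it differed by 0.95 (limma adjusted p = 0.308, or 0.137 with the replicate number in the fit). The genotype difference was 0.82 in I and 1.09 in II, and 0.42 when php II was left out and 1.49 when php I was. The auxin signalling gene IAA29 had wild-type levels of 6.19 and 4.55 and php levels of 7.05 and 6.28, so it was lower on II in both genotypes and higher in php. Its differences were -1.20 between the numbers (limma adjusted p = 0.624) and 1.30 between genotypes (limma adjusted p = 0.305). The IAA29 genotype difference was 0.87 in I and 1.72 in II (limma adjusted p = 0.147 with the replicate number in the fit). It was 0.48 when wild-type II was left out and 2.11 when wild-type I was. For AT4G33980 and IAA29 too, the difference between the numbers enters the values with an array left out. RCA, the gene of Rubisco activase, was at 14.54 on 3 arrays and at 14.48 on php II, near the top of the scale. Of starch breakdown genes, PWD, the phosphoglucan water dikinase gene, was 0.39 higher in php (SE 0.06, limma adjusted p = 0.104) without overlap, and DPE1, which processes maltotriose, differed by 0.22 (limma adjusted p = 0.221).

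**Figure D4:**
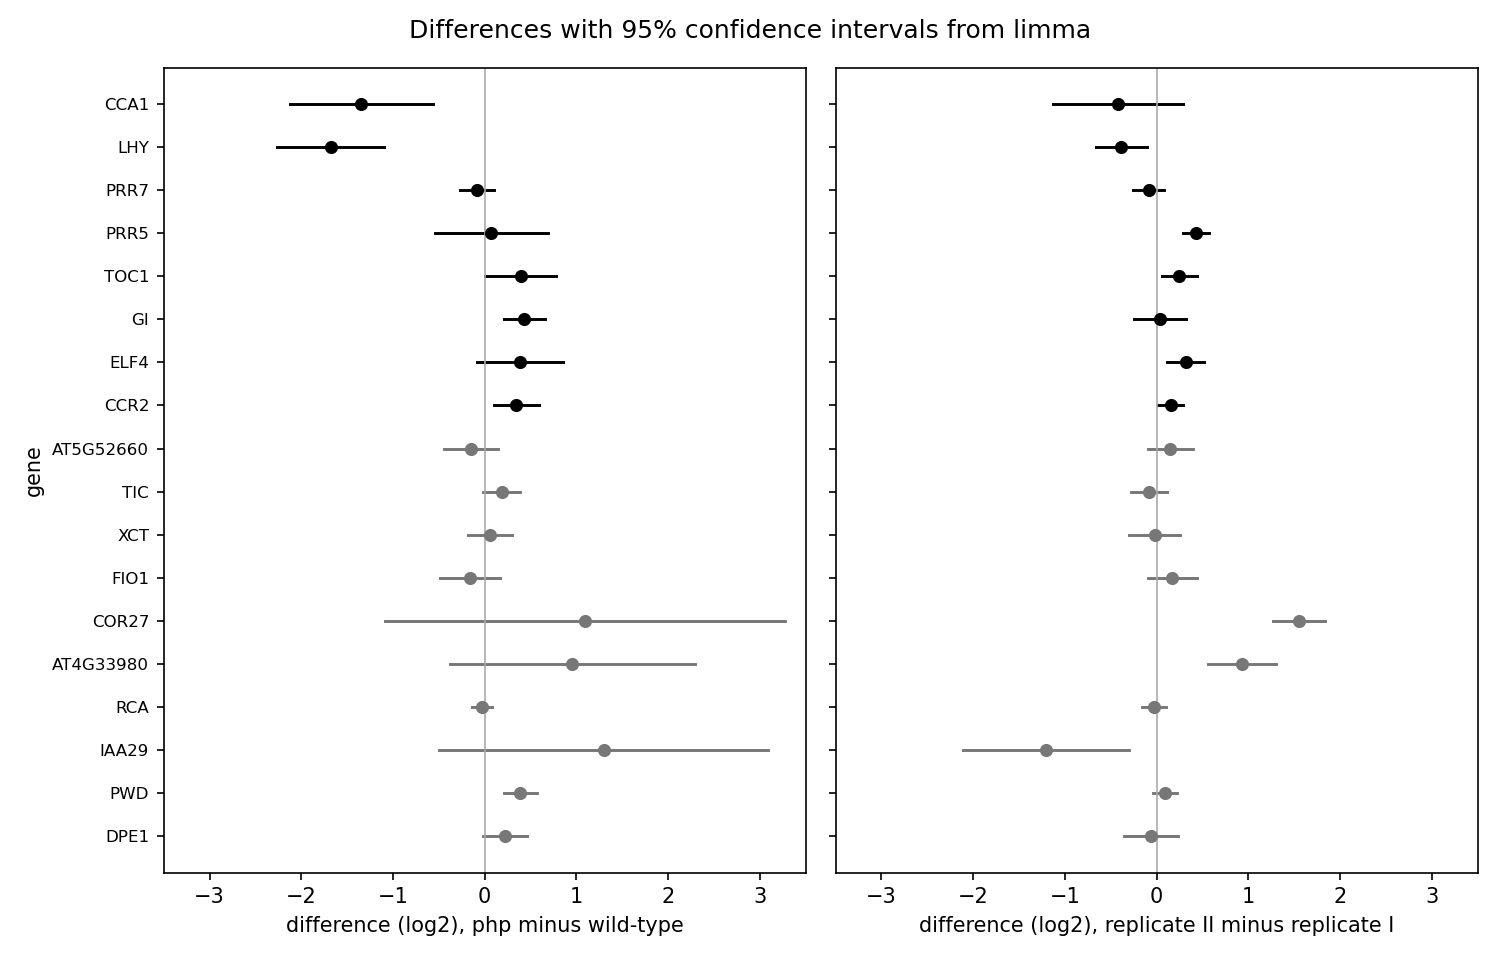
Log2 difference between php and wild-type (left) and between replicates II and I (right) for the 8 clock genes (black) and other tested clock, output and starch genes (grey), with 95% confidence intervals from limma that are not adjusted for the number of genes. The left intervals of CCA1, LHY, TOC1, GI, CCR2 and PWD lie to one side of 0, and the right intervals of LHY, PRR5, TOC1, ELF4, CCR2, COR27, AT4G33980 and IAA29 do.

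The touch- and wound-induced gene STZ also differed with the replicate number, with wild-type levels of 5.66 and 9.32 and php levels of 7.15 and 10.14. It was higher on II by 3.66 and 2.99, and the difference of 3.33 did not pass (limma adjusted p = 0.245). Between genotypes STZ differed by 1.15, with php the higher genotype by 1.49 in I and 0.82 in II. The difference was -0.68 when wild-type replicate I was left out and -0.34 when php replicate II was. With an array left out, I and II are unequal between the genotypes, so the difference between the numbers enters these values. The part of STZ in the differences between the numbers was not tested.

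The tissue label was set against organ markers. Of 8 leaf markers listed, 4 had a probe set named here, LHCB4.1, LHCB4.2, PSBW and PSBY. All 4 were at 13.46 or above on every array, with php minus wild-type differences from -0.09 to 0.07. Of 6 root markers listed, 2 had a named probe set, and of these EXPA7 was at 1.90 to 1.93, among the dimmest probe sets. The other, PYK10, a gene that is also expressed in seedling shoots, averaged 11.77 ± 0.15 and 12.24 ± 0.10 for wild-type and php (SD, n = 2 arrays each). Its difference was 0.47 (limma adjusted p = 0.115). The 4 flower markers with a named probe set, of 7 listed, were AMS, SPL, INO and AT5G07230, and all had means below the filter on dim probe sets. The part of PYK10-expressing tissue in the clock gene differences was not tested.

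The genes whose profile over the 4 arrays was most like that of a clock gene were sought for the clock genes with a range of at least 1 log2 unit, CCA1 and LHY. Likeness was the Euclidean distance between mean-centred log2 profiles, over the 8888 other tested probe sets with 1 gene name, and with 4 arrays it is a description of these arrays only. AT2G41250 was nearest to CCA1, at a distance of 0.17, with wild-type levels of 8.43 and 8.16 and php levels of 7.35 and 6.71. AT3G05730 was the next for CCA1 (0.35) and the nearest for LHY (0.415), with wild-type levels of 12.42 and 12.44 and php levels of 11.17 and 10.91. AER, an alkenal reductase gene, was the second for LHY (0.424). Their php minus wild-type differences of -1.27, -1.39 and -1.44 on the log2 scale follow from the way they were chosen and are given as a description. CCA1 and LHY were 0.47 apart, and 9 of the other tested probe sets lay closer to CCA1 than LHY did.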

How the data were processed

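The deposited values are log2 levels, 1 column per array, which the authors made from Affymetrix ATH1 scans with GCRMA background adjustment and normalization, per the series' design text. MAS5 is also listed in the submitters' processing notes with no role, and the sources used here give no versions. Centring and scale are those of GCRMA, and no ratio or direction is involved. Arrays have no read depth, so their number limits the precision. Left out were 64 control probe sets and the 6824 in the lowest 30% by mean level (up to 2.64), which left 15922.

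Differences were fitted with limma 3.58.1 in R 4.3.3 (lmFit, eBayes with trend, two-sided, Benjamini-Hochberg over 15922), by genotype alone for php against wild-type and by genotype and replicate number for II against I. The fits had 2 and 1 residual and 1.98 and 1.77 prior degrees of freedom. Probe sets were matched to genes through the platform annotation (13513 with 1 gene) and the RefSeq table of assembly TAIR10.1. The lists held 123 loci, of which 29 were measured and 24 tested, clock genes included. The text names the 8 clock genes, the tested genes of each list and, for clock genes with a range of at least 1, the 2 most similar profiles. The 8 genes, lists and tests were chosen with earlier results of these data known. Probe sequences and promoters were not used here. Alternatives were other dim filters, no trend, quantile normalization, median centring, a replicate block, no genotype term, and leaving out each array. Figures used matplotlib 3.10.9.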

Additional observations from a re-analysis of the deposited data

Results flagged for a closer look

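A gene is listed here because arrays I and II differed in one direction in wild-type and in the other in php. With 1 array per genotype and number, none of these differences of direction was tested, and most are small. Of all probe sets tested, 59.8% kept one direction in both genotypes, so a difference of direction is not rare on these arrays. For GI, II minus I was -0.08 in wild-type and 0.17 in php, so the change in php exceeded that in wild-type by 0.25 on the log2 scale. Among other genes named in the text, the php change minus the wild-type change was -0.35 for PYK10, -0.28 for AT3G05730, -0.25 for DPE1, -0.19 for AER, -0.12 for LHCB4.1, -0.060 for PSBW and -0.046 for XCT.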

How the results depend on the processing

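Over 10 alternatives to each comparison, none of the 8 clock genes passed at a limma adjusted p of 0.05. The php minus wild-type difference kept its direction throughout for CCA1 (-1.72 to -0.97, adjusted p 0.076 to 0.414), LHY (-1.88 to -1.49, 0.062 to 0.408), GI (0.35 to 0.51), TOC1 (0.25 to 0.53), ELF4 (0.20 to 0.58), CCR2 (0.25 to 0.44) and PRR7 (-0.15 to -0.01). Of 536 gene values recomputed for 27 genes, 504 kept their direction and side of the threshold and 30 changed sign, 29 of them with an array left out and 24 of them for II minus I. The other 2, AT3G05730 and AER with the lowest 50% left out, passed newly, but these genes were chosen for their likeness to CCA1 or LHY and this is not read as a call.

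The 5 probe sets called for php were 0 without a filter, 21 with the lowest 50% left out, 9 with median centring, 0 with the replicate block and 0 with any array left out (range 0 to 0, 1913 to 4020 at an unadjusted p under 0.05). For II minus I the 0 called became 10 with the lowest 50% left out, 14 with quantile normalization and 12 with median centring. Arrays with the same number deviated together (r = 0.52 across 15922 probe sets), but with 2 pairs the numbers are not shown to pair the arrays. With the replicate block no clock gene passed. The limma adjusted p was then 0.137 for LHY, TOC1 and CCR2, 0.138 for CCA1 and ELF4 and 0.144 for GI. For PRR5 it was 0.360 and for PRR7 0.376.

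Php minus wild-type with one array left out has no replicate term, and I and II are then unequal between the genotypes. The difference between the numbers therefore enters it. With one array left out in turn, it ranged from -0.15 to 0.30 for PRR5, -0.68 to 2.98 for STZ and -0.014 to 0.115 for PSBY. With median centring, php minus wild-type was 0.014 for RCA. II minus I with one array left out has no genotype term, since 3 arrays leave no residual for both, so genotype enters it. It ranged from -0.23 to 0.32 for GI, -1.26 to 0.42 for CCA1, -1.23 to 0.46 for LHY, -0.038 to 0.345 for CCR2, -0.201 to 0.039 for TIC, -0.062 to 0.020 for XCT, -0.11 to 0.30 for PWD, -0.24 to 0.11 for DPE1, -0.078 to 0.050 for LHCB4.1, -0.112 to 0.025 for LHCB4.2, -0.070 to 0.017 for PSBW, -0.058 to 0.00028 for RCA, -0.29 to 0.36 for PYK10, -1.18 to 0.27 for AT2G41250, -0.89 to 0.64 for AT3G05730 and -0.82 to 0.72 for AER. Without a change of sign it ranged from 0.04 to 0.46 for TOC1, 0.09 to 0.54 for ELF4, 0.39 to 0.48 for PRR5, 0.39 to 1.48 for AT4G33980, -2.07 to -0.34 for IAA29 and 1.002 to 2.11 for COR27.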
